A study of Mus musculus with 4 samples.

Results

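The genes described here are 9 genes of T cell quiescence and egress that are high in naive T cells: the receptors S1pr1 and Ccr7, the transcriptional regulators Foxo1, Klf2, Lef1, Satb1 and Bach2, and the transcripts Dapl1 and Igfbp4. They were chosen by name, with earlier results of these data known, so their counts and ranks below only describe them. All 9 were found among the 22180 genes that had a probe set with exactly 1 gene symbol, and each was read from its brightest such probe set. Mouse CD4 T lineage cells of 4 kinds were measured on Affymetrix arrays with 1 array each, all from animals of the C57BL/6 background at 8 weeks of age. Natural Th1 cells (nTh1) were sorted CD4+ thymocytes with CXCR3 from mice labelled CIITAtg, a transgene of the master regulator of MHC class II genes, for which no source used here names the promoter. Classical Th1 cells (cTh1) came from wild-type spleen, where sorted CD4+ cells were stimulated through CD3 and CD28 on beads for 5 days, in medium that held 2 ng/ml of IL-12, 50 U/ml of IL-2 and IL-4-blocking antibody. TT naive cells were the sorted CD4+ thymocytes of CIITAtg mice that lacked CXCR3. The last array is labelled naive and is described as sorted CD4+ cells taken directly from wild-type spleen.

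Naive T cells are held out of the cell cycle and recirculate until they meet antigen. FOXO1 maintains this state by driving Klf2, Ccr7 and the gene of the IL-7 receptor, and is put out of the nucleus by AKT after receptor signals. KLF2 drives S1pr1, whose product lets mature thymocytes and lymph node T cells leave towards sphingosine-1-phosphate (S1P), and CCR7 brings naive cells into lymph nodes along CCL19 and CCL21. LEF1 acts with its relative TCF1, SATB1 organises chromatin in thymocytes, and BACH2 occupies sites of AP-1 factors and restrains effector genes. DAPL1 is a small protein related to the death-associated protein DAP, and IGFBP4 is a secreted binder of insulin-like growth factors. Klf2 and S1pr1 transcripts are known to decline when T cells are activated.

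The promoters of Dapl1 and Igfbp4, which varied most among the 9 genes, and of Klf2, which sits between FOXO1 and S1pr1 in this pathway, are shown from RefSeq sequence of GRCm38.p6. Each is the 250 bases before the annotated start, 5′ to 3′ on the plus strand, with capitals for any of the motifs searched. Dapl1 lies at chr2:59484403-59484652, Igfbp4 at chr11:99040994-99041243 and Klf2 at chr8:72318812-72319061.
Dapl1: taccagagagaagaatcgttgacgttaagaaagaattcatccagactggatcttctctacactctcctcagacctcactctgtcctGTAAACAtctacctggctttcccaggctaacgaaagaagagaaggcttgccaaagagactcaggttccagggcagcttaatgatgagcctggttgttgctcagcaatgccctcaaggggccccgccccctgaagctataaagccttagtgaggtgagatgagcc
Igfbp4: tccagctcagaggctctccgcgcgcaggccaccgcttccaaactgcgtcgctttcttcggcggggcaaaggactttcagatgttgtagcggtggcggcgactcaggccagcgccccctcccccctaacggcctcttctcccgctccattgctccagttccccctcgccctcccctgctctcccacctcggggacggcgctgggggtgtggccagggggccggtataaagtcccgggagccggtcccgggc
Klf2: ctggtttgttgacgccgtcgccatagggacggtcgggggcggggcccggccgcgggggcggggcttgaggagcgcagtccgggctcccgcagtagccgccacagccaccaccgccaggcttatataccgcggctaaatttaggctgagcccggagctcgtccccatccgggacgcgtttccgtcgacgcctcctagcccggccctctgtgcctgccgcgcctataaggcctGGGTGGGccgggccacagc

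Both strands were searched for a forkhead motif (GTAAACA), a TCF/LEF motif (CTTTGAT), a KLF motif (GGGTGGG) and an AP-1 and BACH motif (TGAGTCA). The table held 14 windows for 7 of the 9 genes, and none for Ccr7 and S1pr1. The forkhead motif was found in the Dapl1 window, 164 bases before the start, and in no other window of the 9 genes, against 3.17% of all 32851 windows. The KLF motif was found in 6 of the 14 windows, among them that of Klf2 at 19 bases before the start, against 15.8% of all windows. These 6 windows belong to Klf2 (1), Lef1 (3) and Satb1 (2), and 2 of those of Lef1 hold the same site because they overlap. The TCF/LEF and the AP-1 and BACH motifs were in none of the 14 windows, against 3.21% and 4.46% of all windows. The matches describe letters only and do not show binding.

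The arrays were set against their labels before the 9 genes were read. Cxcr3 gave 9.91 in nTh1, 10.53 in cTh1, 7.76 in TT naive and 9.80 on the array labelled naive, all on the log2 scale of robust multi-array average (RMA) values, where 1 unit is 2-fold. The array labelled naive thus stood at the level of the CXCR3+ cells. Of 8 genes of innate-like T cells, 6 were highest on it, with Zbtb16, the gene of PLZF, at 12.23, against 9.88 in nTh1 and 9.36 in TT naive cells. These values go against its label, so it is called the array labelled naive. Whether arrays were exchanged cannot be told from these files. If they were, the values given for this array and for any array exchanged with it would belong to other cells. The comparisons, ranges and orders are also given without the array labelled naive, but the likeness of patterns uses all 4 arrays. Leaving that array out does not guard against an exchange, since another array would be affected too. Th1 genes marked nTh1 less clearly than cTh1. Tbx21 gave 7.92 in nTh1, 11.25 in cTh1, 7.11 in TT naive and 9.81 on the array labelled naive. Ifng gave 7.34, 11.19, 5.88 and 8.80 in the same order. Of 15 effector and memory genes that reached 6.61 on either array, 7 were 2-fold higher in nTh1 than in TT naive and 1 was lower. Against the array labelled naive, 1 of 17 was higher in nTh1 and 8 lower. The name nTh1 is therefore used as a label too. Genes of T cell identity such as Cd3e and Thy1 showed no range of 2-fold in any of their 10 measured members. B cell markers were highest in cTh1 in 9 of 9 cases, with summed levels, as log2, of 10.35 in nTh1, 12.25 in cTh1, 9.52 in TT naive and 9.60 on the array labelled naive, and myeloid markers were highest in nTh1 in 10 of 12 cases, with sums of 12.00 in nTh1, 10.99 in cTh1, 10.62 in TT naive and 11.48 on the array labelled naive. CD8 T cell markers summed to 10.26 in nTh1, 12.31 in cTh1, 9.93 in TT naive and 9.50 on the array labelled naive. With 1 array per group no difference has a replicate check and no test was made. The only spread that could be measured was how far probe sets of 1 gene disagreed on a log2 difference, as a standard deviation (SD), which was 0.257 to 0.481 over the 6 comparisons. In a bulk sample, fewer cells of a type and less RNA per cell cannot be told apart.

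Dapl1 and Igfbp4 varied most over the 4 arrays, Bach2 and Klf2 varied more than most genes, and Lef1 and Satb1 varied least. The range from the highest to the lowest array was 3.83 for Dapl1, 2.06 for Igfbp4 and 1.15 for Bach2, all past 2-fold. It was 0.84 for Klf2, 0.66 for S1pr1, 0.63 for Ccr7, 0.46 for Foxo1, 0.35 for Satb1 and 0.19 for Lef1. A range of 2-fold or more was thus seen in 3 of 9 genes, against 17.9% of the 13238 genes that reached the median of all values, 6.61, on any array. The median range was 0.66 over the 9 genes and 0.51 over these 13238, and 0.63 over the 7 genes other than Dapl1 and Igfbp4. Without the array labelled naive, 2 of 9 genes had a range of 2-fold, against 14.7% of 13017 genes, since that of Bach2 became 0.73. The median range over these 3 arrays was 0.37 over the 9 genes, 0.27 over the 7 and 0.42 over all genes. All 9 genes were above 6.61 on all 4 arrays.

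**Figure D1:**
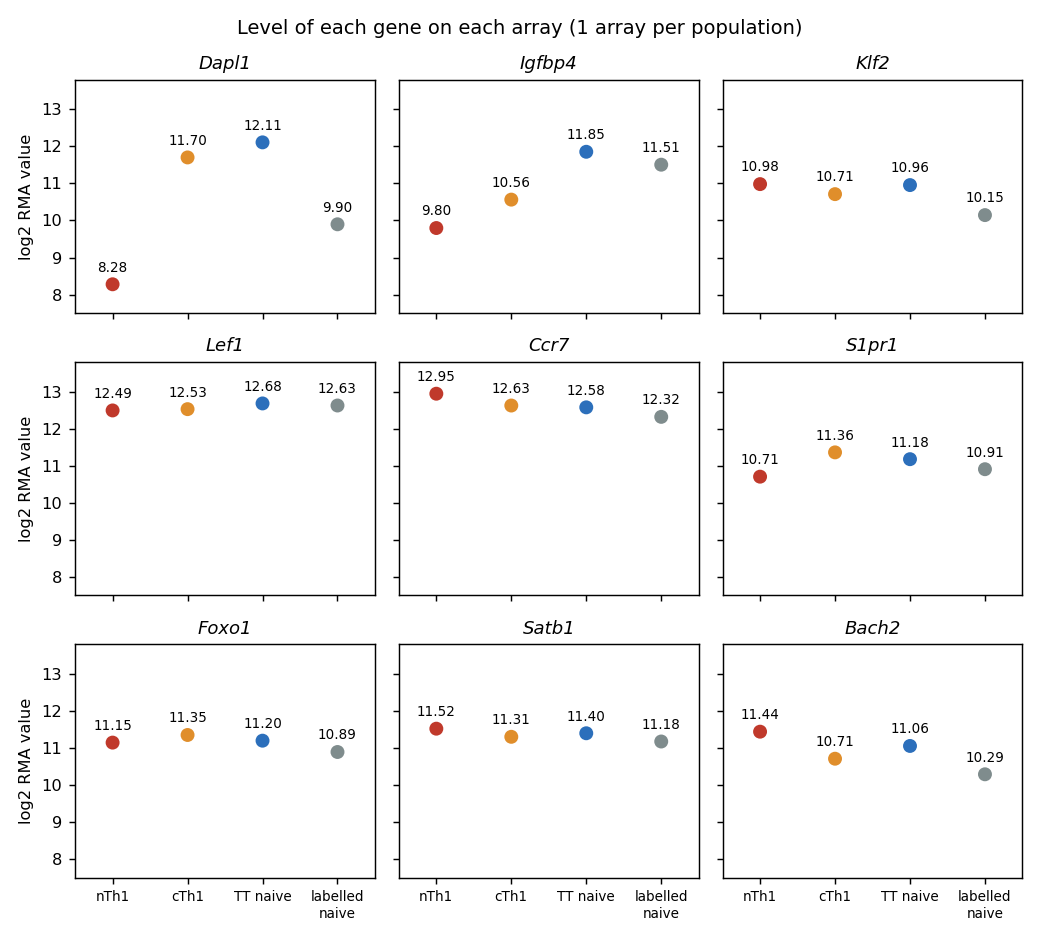
Log2 RMA values (y axis) of each of the 9 genes on the nTh1, cTh1, TT naive and labelled naive arrays (x axis), 1 point per array, with no error bar because each population has 1 array. Dapl1 spans 8.28 to 12.11 and Igfbp4 9.80 to 11.85, while Lef1 lies between 12.49 and 12.68 throughout.

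**Figure D2:**
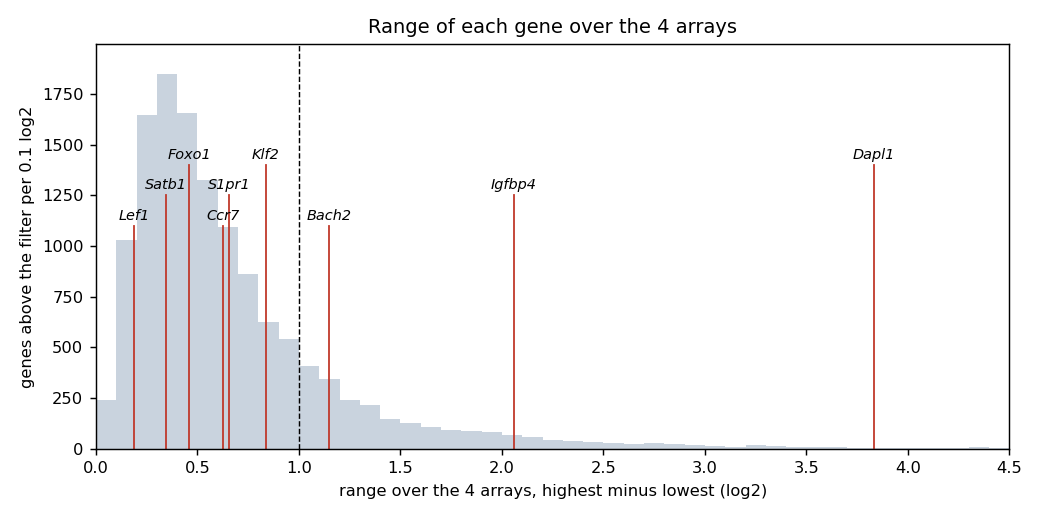
Number of genes above the level filter (y axis) by their range over the 4 arrays in log2 units (x axis), as bars of width 0.1, with red lines at the ranges of the 9 genes and a dashed line at 2-fold. The height of a red line only makes room for its name, and genes with a range beyond the right edge are not drawn. Dapl1 at 3.83 lies far in the tail, and 6 of the genes lie below 2-fold.

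The receptors of egress and homing differed by less than 2-fold between any arrays. S1pr1, the S1P receptor of egress, had 10.71 in nTh1, 11.36 in cTh1, 11.18 in TT naive and 10.91 on the array labelled naive. It was highest in the cultured cells and lowest in nTh1, and each step in this order was smaller than the SD between probe sets. From end to end, S1pr1 was lower in nTh1 than in cTh1 by 0.66 (1.58-fold), which exceeds the SD of 0.481 but not 2-fold. Its differences of -0.47 in nTh1 over TT naive and 0.45 in cTh1 over the array labelled naive also exceeded the SD. Ccr7, the receptor for CCL19 and CCL21, had 12.95 in nTh1, 12.63 in cTh1, 12.58 in TT naive and 12.32 on the array labelled naive. Both Th1 populations were thus at or above TT naive cells for Ccr7. Ccr7 in nTh1 was above TT naive by 0.37 (SD 0.257) and above the array labelled naive by 0.63 (SD 0.368), and the other 4 differences were within the SD. The Ccr7 values lie in the upper part of a scale that ended at 14.05 in this table, where array signals tend to be compressed. Cd69, whose product holds S1PR1 inside the cell, was highest where S1pr1 was lowest and lowest where it was highest, with 11.95 in nTh1, 10.89 in cTh1, 11.79 in TT naive and 11.50 on the array labelled naive. On the remaining arrays both genes were higher in TT naive, and Cd69 in nTh1 over TT naive, at 0.16, was within the SD of 0.257. A link between these transcripts was not tested.

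Foxo1 and Klf2 were lowest on the array labelled naive, as were Ccr7, Satb1 and Bach2. Foxo1 had 11.15 in nTh1, 11.35 in cTh1, 11.20 in TT naive and 10.89 on the array labelled naive. Foxo1 exceeded the SD in cTh1 over the array labelled naive, at 0.46 (SD 0.402), and barely in TT naive over that array, at 0.31 (SD 0.304). Its second, dimmer probe set gave 7.29 in nTh1, 7.54 in cTh1, 7.44 in TT naive and 7.40 on the array labelled naive, so it differed even less and placed nTh1 lowest. Klf2 had 10.98 in nTh1, 10.71 in cTh1, 10.96 in TT naive and 10.15 on the array labelled naive. All 3 Klf2 differences from the array labelled naive exceeded the SD, the smallest being that of cTh1 at 0.57, and the 3 others did not. Without the array labelled naive, Klf2 spanned 0.27 and Foxo1 0.21.

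Lef1 and Satb1 were the flattest of the 9 genes. Lef1 had 12.49 in nTh1, 12.53 in cTh1, 12.68 in TT naive and 12.63 on the array labelled naive, and 8.45% of genes above the filter had a smaller range. Satb1 had 11.52 in nTh1, 11.31 in cTh1, 11.40 in TT naive and 11.18 on the array labelled naive. No step between neighbouring arrays passed the SD for either gene. Lef1 lies near the top of the scale like Ccr7, whereas Satb1 lies lower, and 28.8% of genes had a smaller range than Satb1.

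Bach2 was the only one of the 7 regulators and receptors with a range past 2-fold. It had 11.44 in nTh1, 10.71 in cTh1, 11.06 in TT naive and 10.29 on the array labelled naive. Bach2 in nTh1 was above TT naive by 0.39 (SD between probe sets 0.257) and above cTh1 by 0.73 (SD 0.481), both under 2-fold. Only the difference from the array labelled naive, 1.15 or 2.22-fold, passed that size. Another, dimmer probe set carried the symbols of Bach2 and its antisense gene together and was not used. It gave 7.27 in nTh1, 6.85 in cTh1, 7.21 in TT naive and 6.29 on the array labelled naive. Its order of arrays was the same, but its range of 0.98 was under 2-fold and nTh1 was close to TT naive.

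Dapl1 split the arrays across tissue, genotype and culture. It had 8.28 in nTh1, 11.70 in cTh1, 12.11 in TT naive and 9.90 on the array labelled naive. The cultured Th1 cells were within the SD of TT naive cells (gap 0.41, SD 0.440), while both remaining arrays were far below. nTh1 was lower than TT naive by 14.2-fold and lower than cTh1 by 10.7-fold. Of 12435 genes in the comparison of nTh1 with TT naive, Dapl1 had the lowest difference of all. For range, 99.6% of genes above the filter were less variable.

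Igfbp4 ordered the arrays differently. It had 9.80 in nTh1, 10.56 in cTh1, 11.85 in TT naive and 11.51 on the array labelled naive, and all 3 steps exceeded the SD. Both Th1 populations were thus below both populations labelled naive, and among the 9 genes Igfbp4 was the only one with this split at a gap beyond the SD. nTh1 was lower than TT naive by 4.17-fold, the 15th lowest difference of 12435 genes (rank 15). cTh1 was lower than TT naive by 2.45-fold and lower than the array labelled naive by 1.92-fold.

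Natural Th1 and TT naive cells share tissue and genotype and were sorted apart by CXCR3. Dapl1 at -3.83 and Igfbp4 at -2.06 were at least 2-fold lower in nTh1, and none of the 9 genes was 2-fold higher. These 2 of 9 genes compare with 1.09% of 12435 genes that were 2-fold lower and 1.41% that were higher, and both values were known when the genes were chosen. The other 7 genes lay between -0.47 for S1pr1 and 0.39 for Bach2, with Ccr7 at 0.37, Satb1 at 0.12, Klf2 at 0.03, Foxo1 at -0.05 and Lef1 at -0.19. Of these 7, 4 were within the SD of 0.257, and the sign of Klf2 turned when arrays were centred on their medians. The median over the 9 genes was -0.05, the same as over all genes. Myeloid markers moved with this comparison, with 8 of 11 genes above the filter at least 2-fold higher in nTh1 (Lyz2 at 3.38 and C1qb at 2.34), as did immature thymocyte genes, with 4 of 8 (Aqp11 2.76, Cd24a 2.19, Dntt 2.01 and Arpp21 1.06). Regulatory T cell markers were 2-fold lower in nTh1 in 2 of 8 cases, Foxp3 at -2.57 and Gpr83 at -2.11. The other 6 were within 2-fold, among them Il2ra, which was higher in nTh1 (10.08) than in TT naive (9.66). Summed levels were 11.67 in nTh1, 13.58 in cTh1, 12.23 in TT naive and 12.53 on the array labelled naive. The cTh1 sum rests mostly on Il2ra at 12.52 and Tnfrsf18 at 11.66, while Foxp3 was 9.21 in cTh1 and 9.87 in TT naive. The part of these 3 marker lists in the values of Dapl1 and Igfbp4 was not tested.

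The comparison of cTh1 with TT naive cells sets cultured Th1 cells against the naive array whose Cxcr3 was low. Tissue, genotype and culture differ together between these arrays and cannot be told apart. In cTh1, 8 of the 9 genes were within 2-fold of TT naive, and Igfbp4 was lower, at -1.29. Of 12728 genes, 3.02% were 2-fold lower and 7.24% higher. All 7 regulators and receptors were within the SD of 0.440, from -0.34 for Bach2 to 0.18 for S1pr1, and Satb1 at -0.10 turned sign under median centring. The same arrays differed widely in effector and memory genes, of which 16 of 18 reached 2-fold in the direction of cTh1 and none in that of TT naive, with a median of 2.18. Gzmb was higher by 6.90, Ifng by 5.31, Tbx21, the gene of T-bet, by 4.14 and Cxcr6 by 3.69. Proliferation genes were 2-fold higher in 10 of 20 cases, among them Aurkb at 2.12 and Birc5 at 1.92. B cell markers were 2-fold higher in cTh1 in 6 of 8 cases above the filter, with Cd79a at 3.79, and CD8 T cell markers in 3 of 4, with Cd8a at 4.09. B cells express Ccr7, Klf2, S1pr1, Foxo1 and Bach2 too, and the part of such cells in the cTh1 levels was not tested.

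**Figure D3:**
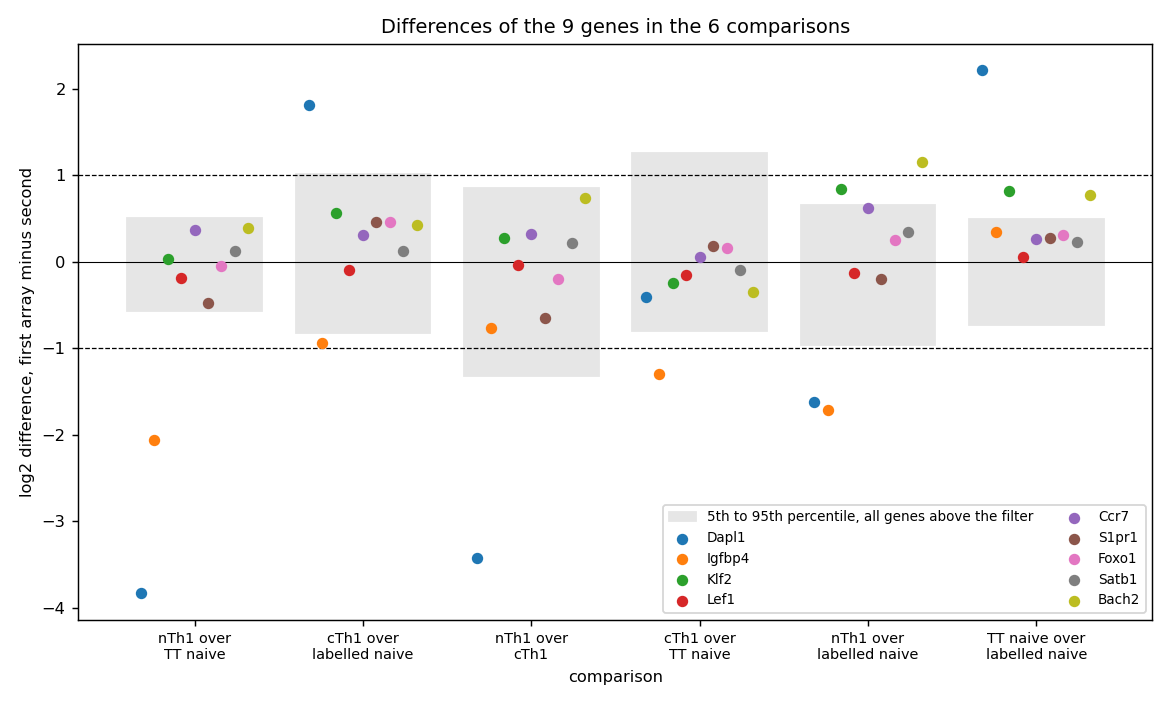
Log2 difference of the first array minus the second (y axis) for each of the 9 genes (coloured points) in the 6 comparisons (x axis), over grey boxes that span the 5th to 95th percentile of all genes above the filter and dashed lines at 2-fold. Dapl1 lies outside the box in 5 comparisons and is inside it for cTh1 over TT naive at -0.41, whereas Lef1 is inside every box.

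The comparison of cTh1 with the array labelled naive is the one that the culture implies by label. Dapl1 was higher in cTh1 by 1.81 (3.49-fold), and no gene was 2-fold lower, against 5.13% of 12835 genes higher and 3.35% lower. Klf2 was at 0.57, Foxo1 at 0.46, S1pr1 at 0.45, Bach2 at 0.42, Ccr7 at 0.31, Satb1 at 0.13, Lef1 at -0.10 and Igfbp4 at -0.94. The median was 0.42 over the 9 genes and -0.02 over all genes. Against TT naive the same median was -0.15, smaller in size than the SD between probe sets of 0.440. The upward shift thus depends on which naive array is used. Dapl1 itself was at 1.81 against the array labelled naive and -0.41 against TT naive, the second within the SD of 0.440.

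Natural and classical Th1 cells, the contrast in the series title, differed by 2-fold in 1 of the 9 genes. Dapl1 was lower in nTh1 than in cTh1 at -3.42, against 8.3% of 12841 genes that were 2-fold lower and 3.46% higher. Igfbp4 was at -0.77, S1pr1 at -0.66, Foxo1 at -0.21 and Lef1 at -0.03, while Bach2 was at 0.73, Ccr7 at 0.32, Klf2 at 0.27 and Satb1 at 0.22. Of the 7 regulators and receptors, 5 were within the SD of 0.481, and Lef1 turned sign when a loess trend was removed. The array median was higher in nTh1 than in cTh1 by 0.18, the largest such shift among the 6 comparisons. The arrays differ in tissue, genotype and culture at once, as do cTh1 and TT naive.

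TT naive cells had higher values than the array labelled naive for all 9 genes, or for 8 when arrays were centred on their medians, since Lef1 at 0.06 turned sign. Dapl1 was higher by 2.21, the 6th highest difference of 12582 genes (rank 6), and was the only one at 2-fold, against 0.795% of genes higher and 2.59% lower. Klf2 followed at 0.81, Bach2 at 0.76, Igfbp4 at 0.35, Foxo1 at 0.31, S1pr1 at 0.27, Ccr7 at 0.26 and Satb1 at 0.22. The median was 0.31 over the 9 genes and -0.06 over all genes. In the same comparison 12 of 17 effector and memory genes were 2-fold lower in TT naive, with Ifng at -2.91, Cxcr6 at -2.78, Tbx21 at -2.70 and Nkg7 at -2.37, and Zbtb16 was at -2.87. These values belong to the array labelled naive as much as to TT naive cells.

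nTh1 against the array labelled naive gave 2 genes at least 2-fold lower, Igfbp4 at -1.71 and Dapl1 at -1.62, and 1 higher, Bach2 at 1.15. Of 12754 genes, 4.43% were 2-fold lower and 1.93% higher. Klf2 was at 0.84 and Ccr7 at 0.63, both beyond the SD of 0.368, and Satb1 at 0.35, Foxo1 at 0.25, Lef1 at -0.13 and S1pr1 at -0.20 were within it. Against TT naive the corresponding values were 0.03 for Klf2 and 0.37 for Ccr7.

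Counted over arrays, the array labelled naive was the lowest for 5 of the 9 genes (Klf2, Ccr7, Foxo1, Satb1 and Bach2) and the highest for none. nTh1 was the lowest for the other 4 (Dapl1, Igfbp4, Lef1 and S1pr1) and the highest for 4 (Klf2, Ccr7, Satb1 and Bach2). TT naive was highest for Dapl1, Igfbp4 and Lef1, and cTh1 for S1pr1 and Foxo1. Of the 27 steps between neighbouring arrays, 8 exceeded the SD between probe sets of the pair, and 5 genes (Lef1, Ccr7, S1pr1, Foxo1 and Satb1) had none that did. Steps are smaller than differences between any 2 arrays, and of these 54 differences, 6 for each gene, 26 exceeded the SD. The share of all genes beyond this SD was not computed, so counts against it do not set the 9 genes apart. The median absolute difference over all genes was 0.18 in nTh1 over TT naive and 0.33 in nTh1 over cTh1, the smallest and largest of the 6 comparisons. Igfbp4 exceeded the SD between probe sets in all 6 comparisons, Dapl1 and Bach2 in 5 each, and Klf2 and S1pr1 in 3 each. Ccr7 and Foxo1 exceeded this SD in 2 each, and Lef1 and Satb1 in none. In the 3 comparisons that leave out the array labelled naive, Igfbp4 exceeded the SD in 3, Dapl1, S1pr1 and Bach2 in 2 each, Ccr7 in 1 and the other genes in none. Without that array, nTh1 was the lowest for 5 genes, cTh1 for 3 and TT naive for 1, and the highest arrays were unchanged.

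Other genes of the pathway were read in lists drawn up by function, and the shares over all genes given above for each comparison apply to their counts. Of 16 measured FOXO target genes, of which Klf2, Ccr7 and S1pr1 are members too, 1 was 2-fold higher in nTh1 than in TT naive, Bcl2l11, the gene of the death inducer BIM, at 1.44. In cTh1 over TT naive 3 were higher, Gabarapl1 of autophagy at 2.75, Bcl2l11 at 1.55 and the cyclin Ccng2 at 1.14, and none was lower, against 7.24% of all genes higher. Over the 4 arrays 4 of 16 FOXO targets and 5 of 24 quiescence factors had a range of 2-fold, against 17.9% of all genes. Il7r, the IL-7 receptor chain and a marker of naive T cells, had 12.77 in nTh1, 12.78 in cTh1, 12.67 in TT naive and 12.65 on the array labelled naive. Of 17 genes of S1P handling and egress above the filter, none differed by 2-fold in 5 of the 6 comparisons, and in nTh1 over cTh1 Cd69 was at 1.06 and S1pr4 at -1.18. Of 24 quiescence factors none differed by 2-fold between nTh1 and TT naive. In cTh1 over TT naive 1 of them did, the CDK inhibitor gene Cdkn2c at 1.28.

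Some genes listed with LEF1 or BACH2 differed by 2-fold between arrays where Lef1 and Bach2 did not. These lists hold related regulators and targets as well as partners. Of 14 genes listed with LEF1 and TCF1, 1 was higher and 2 lower in cTh1 than in TT naive. In nTh1 none was higher and 1 lower. Of 17 genes listed with BACH2 and AP-1, 3 were higher in cTh1 than in TT naive and none lower. Id3, an inhibitor of E proteins, was at -1.77 in nTh1 over TT naive and -2.00 in cTh1 over TT naive, and Tox, a factor of thymic CD4 development, was at -2.16 in the second comparison, where Runx3 was at 1.39. Prdm1, the gene of BLIMP1 and a known target of BACH2 repression, had 7.60 in nTh1, 9.59 in cTh1, 7.54 in TT naive and 7.67 on the array labelled naive, so it was high in cTh1 alone. Fosl2, of the AP-1 family, was at 2.34 in cTh1 over TT naive. Within the PI3K, AKT and mTOR list, Ddit4, an inhibitor of mTOR, had 9.48 in nTh1, 11.52 in cTh1, 11.35 in TT naive and 10.16 on the array labelled naive. Ddit4 and Dapl1 thus shared the grouping of cTh1 with TT naive above the other arrays.

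Among 21 other transcripts of naive T cells, 1 was 2-fold lower in nTh1 than in TT naive, Tdrp at -1.09, and none higher, with a median of -0.09. In cTh1 over TT naive 1 was higher and 4 lower, against 7.24% and 3.02% of all genes. Ly6c1 was higher by 1.86 in cTh1 than in TT naive, and Atp1b1, a sodium pump subunit, was at -2.09, Als2cl at -1.61 and Ramp1 at -1.38. Some genes of these lists were not analysed here.

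**Figure D4:**
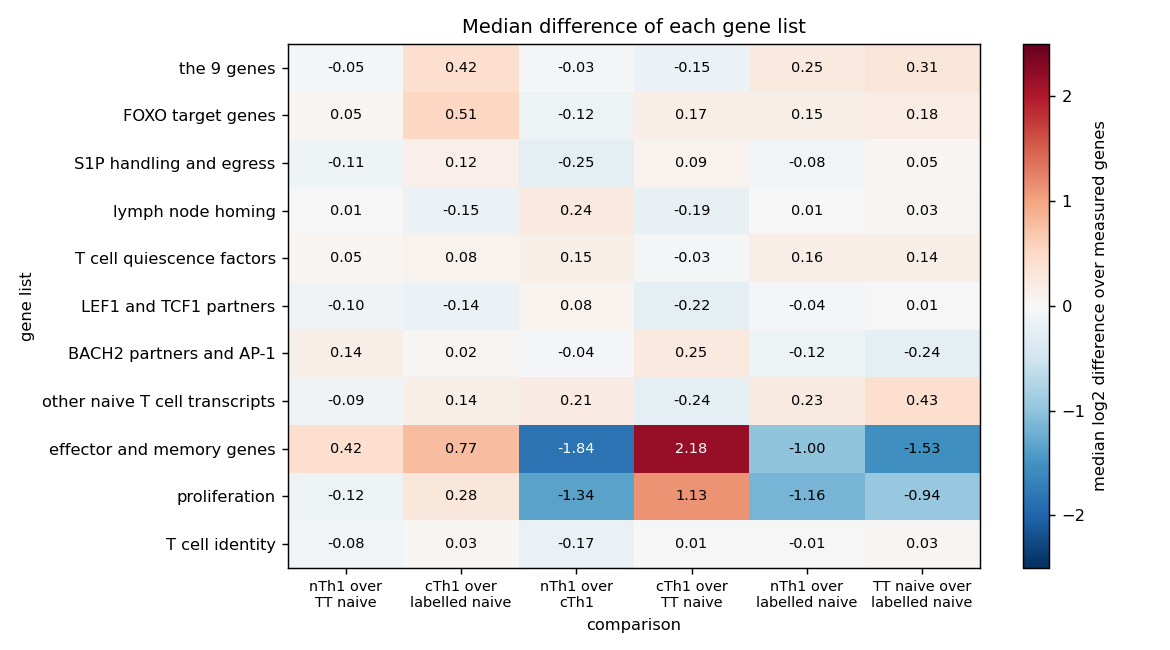
Median log2 difference over the measured genes of each list (rows) in the 6 comparisons (columns), red for higher and blue for lower in the first array, with the value in each cell. The 9 genes and the naive and egress lists lie between -0.25 and 0.51, while effector and memory genes reach 2.18 in cTh1 over TT naive.

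Relatives of the 9 genes were read for the same arrays, and levels of different genes are not set against each other because they rest on different probes. Of 21 relatives above the filter, none differed by 2-fold between nTh1 and TT naive. Dap, the relative of Dapl1, had 11.74 in nTh1, 12.68 in cTh1, 11.17 in TT naive and 11.41 on the array labelled naive, and so was highest in the cultured cells. S1pr4, another S1P receptor of lymphocytes, had 8.23 in nTh1, 9.41 in cTh1, 8.67 in TT naive and 8.56 on the array labelled naive, with the same highest and lowest arrays as S1pr1. Bach1, the relative of Bach2, had 9.64 in nTh1, 9.06 in cTh1, 8.81 in TT naive and 9.14 on the array labelled naive, with nTh1 highest as for Bach2. Igfbp7 had 6.63 in nTh1, 7.30 in cTh1, 6.76 in TT naive and 8.72 on the array labelled naive, an order unlike that of Igfbp4. The chemokine receptor genes Ccr9 and Ccr4 were highest on the array labelled naive, at 8.84 and 11.28, where Ccr7 was lowest. In TT naive they had 7.39 and 9.82. Foxo3, with 8.48 in nTh1, 8.86 in cTh1, 8.55 in TT naive and 8.36 on the array labelled naive, had cTh1 highest and the array labelled naive lowest, as did Foxo1.

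Likeness of pattern was measured as the root mean square distance between log2 values centred on each gene's own mean over the 4 arrays, among the 2099 genes with a range of 2-fold or more that remained after the 9 genes, predicted, Rik, small RNA and unnamed genes, pseudogenes and genes of olfactory and vomeronasal receptors were left out. Acss2 at 0.03 and Pnisr at 0.05 were nearest to Bach2, the smallest distances among these matches. Ptgfrn at 0.13 and St8sia6 at 0.19 were nearest to Igfbp4. Dapl1 had no close match: Chil5 and Foxp3, the gene of regulatory T cells, were nearest at 0.67 each. Foxp3 had 7.29 in nTh1, 9.21 in cTh1, 9.87 in TT naive and 8.82 on the array labelled naive. Klf2 was nearest to Prrg1 at 0.09 and Traf3ip3 at 0.10, Ccr7 to Coro6 at 0.14 and Bbs10 at 0.15, and S1pr1 to Insig2 and Rassf3 at 0.14 each. Satb1 shared Coro6 and Bbs10 with Ccr7 at 0.25 and 0.26, Foxo1 was nearest to Gimap3 at 0.20 and Gprc5b at 0.21, and Lef1 to Mrps36 at 0.30 and Rasal1 at 0.31. The candidates varied at least 2-fold and these 6 genes did not, so an exact match was not possible for them. Among the 9 genes themselves, Ccr7 and Satb1 were the nearest pair at 0.11, Klf2 and Bach2 stood at 0.17, and Dapl1 and Igfbp4 were 1.17 apart. With 4 arrays, such likeness is a description only.

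**Figure D5:**
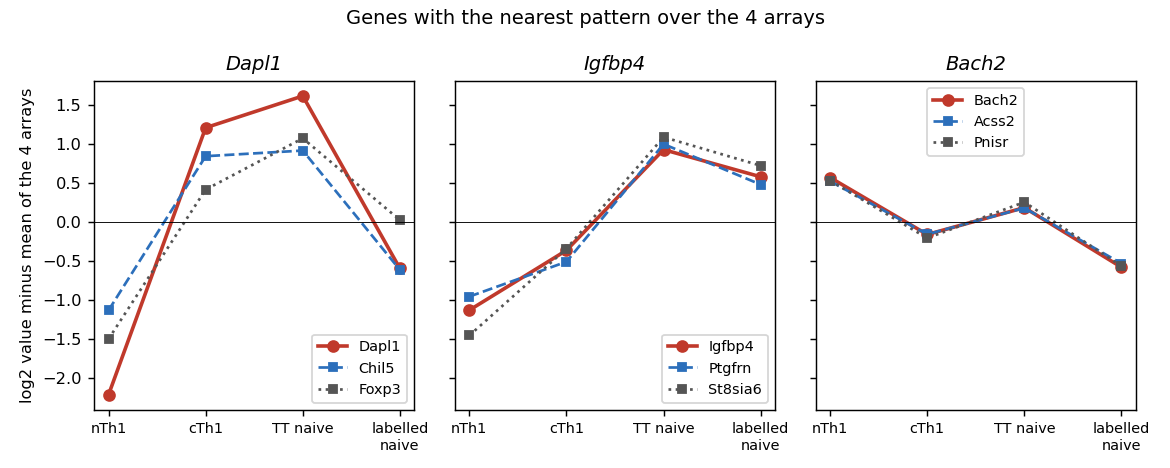
Log2 values minus the mean of the 4 arrays (y axis) on each array (x axis) for Dapl1, Igfbp4 and Bach2 (red) and the 2 genes nearest to each (blue dashed and grey dotted lines). Bach2, Acss2 and Pnisr nearly coincide, whereas Dapl1 is lower in nTh1 than Chil5 and Foxp3 do.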

How the data were processed

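The authors deposited log2 RMA values of probe sets. The submitters' processing notes name Affymetrix Expression Console 1.3.1 for this step. RMA subtracts background, equalises the arrays' distributions and combines probes into sets, so that shifts shared by most genes are removed. No source used here gives the summary level, annotation version or genome build. Per the labels, 300 ng of total RNA was labelled for each array. There were 41345 probe sets with 0 values missing, and array medians were between 6.52 and 6.70. Precision is limited by the number of arrays, 1 per group.

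Probe sets were named from the platform annotation (23521 with 1 symbol, 1814 with several, 16010 with none), and the probe set with the highest mean was used for each of 22180 genes. Genes entered a comparison when either array reached 6.61, the median of all values. Log2 values were subtracted, first array minus second, and counted at 2-fold, with no test. The SD between probe sets was pooled within 455 to 480 genes with several above the filter. The members and gene lists were chosen with earlier results of these data known. Named genes were the 9 members, their relatives, sort and marker genes, the 4 genes of each list with the largest difference in each comparison, and the 2 genes of nearest pattern. The counting and likeness steps were run on simulated data with noise below the SD between probe sets. That run checks the code and not the reliability of the differences. Alternatives covered the filter, centring, the removal of a loess trend (span 0.3), averaging of a gene's probe sets, a 3-fold threshold and another distance. The omission of single arrays was chosen after seeing the data. Motifs were searched in RefSeq promoter windows of GRCm38.p6. Python 3.11.15, numpy 2.4.6, pandas 2.3.3, statsmodels 0.14.6 and matplotlib 3.10.9 were used.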

Additional observations from a re-analysis of the deposited data

Results flagged for a closer look

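Set as Th1 over naive within each tissue, 3 genes had opposite signs in the thymus (nTh1 minus TT naive) and the spleen (cTh1 minus the array labelled naive). Only the spleen contrast includes 5 days of culture, and its cells are wild-type where the thymic cells are CIITAtg. Tissue, genotype and culture thus cannot be told apart between these contrasts. Dapl1 was at -3.83 in the thymus and 1.81 in the spleen, a gap of -5.64. S1pr1 was at -0.47 and 0.45, a gap of -0.93, and Foxo1 at -0.05 and 0.46, a gap of -0.51. With 1 array on each side the differences were not tested, and for S1pr1 and Foxo1 each value was under 2-fold. The thymus value of Foxo1 was within the SD between probe sets of 0.257 and near 0 after the loess trend was removed, so its opposite sign has no support beyond that spread. The spleen values rest on the array labelled naive, whose Cxcr3 and Zbtb16 go against its label.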

How the results depend on the processing

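With a 3-fold threshold, 0 of the 9 genes were lower in cTh1 than in TT naive, where Igfbp4 was 2-fold lower, and 0 were higher in nTh1 than on the array labelled naive, where Bach2 was 2-fold higher. The other 110 counts and medians under the alternatives stayed within 1.5 times or within the SD between probe sets, and no difference past 2-fold changed sign. Under centring or loess only Klf2, Lef1 and Satb1 changed sign, at differences of 0.10 or less. Leaving out 1 array at a time, the number of genes with a range of 2-fold was 2 to 3, and 2 without nTh1 or without the array labelled naive. With the largest difference of centred values as the distance, the 2 nearest genes were partly replaced for Dapl1, Igfbp4, Ccr7 and Satb1 (1 shared) and wholly for S1pr1 (0 shared). No paired analysis was possible because each group has 1 array. The number of arrays limits all values, and compression near the top of the scale may narrow differences of Ccr7 and Lef1.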
